A study of Mus musculus with 1528 samples.

Results

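Bone marrow–derived macrophages (BMDMs) with a high ratio of gene fragments to spike-in fragments were described here as a group of single cells. The cells were grown from C57BL/6 bone marrow with M-CSF, came from 2 wild-type mice and received IL4 and IL13, alone (IL4+IL13) or together with TNF (IL4+IL13+TNF), for 24 h at 10 ng/ml of each. Each live cell was sorted into its own well of a 384-well plate and made into a Smart-seq2 library, with plates 2 and 3 holding mouse 1 and plates 4 and 5 holding mouse 2. On every plate IL4+IL13 took rows A to H and IL4+IL13+TNF took rows I to P, so treatment and row cannot be told apart on these plates. Of 1524 wells, 1439 were kept, with at least 200000 gene fragments, at least 5000 genes and at most 10% of fragments from mitochondrial genes. The high-ratio cells were chosen by a measured value: gene fragments divided by spike-in fragments plus 1, with the top 20% of the kept cells of each plate taken. This gave 289 of 1439 cells, of which 51 and 50 were IL4+IL13 cells of mouse 1 and mouse 2 and 95 and 93 were IL4+IL13+TNF cells. The bottom 20% of each plate, also 289 cells, served for comparison and are called low-ratio cells.

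Spike-ins are synthetic RNAs of the External RNA Controls Consortium (ERCC) that are added to each well in a fixed amount. A well with more cellular RNA should give proportionally fewer spike-in fragments, so the ratio is read as an estimate of RNA content per cell. RNA content grows with cell volume and with passage through the cell cycle, since a cell must copy its contents before it divides. BMDMs still divide under M-CSF, while fused macrophages are large and hold several nuclei. The estimate holds only if every well received the same amount of spike-in. The step at which the spike-ins entered the wells was not given in the sources used here.

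The values that chose the cells are given as a description. The median ratio of the high-ratio cells was 6021 and 3696 in the IL4+IL13 cells of mouse 1 and mouse 2, and 10759 and 3566 in their IL4+IL13+TNF cells. The low-ratio cells had medians of 1209.8 and 743 without TNF and 1195 and 812 with TNF. The spike-in counts differed far more than the gene fragments: the median high-ratio cell had 79, 123, 43 and 127 spike-in fragments in these 4 samples, and the median low-ratio cell had 397, 612, 352 and 590. The ranges still overlapped, at 0 to 1051 fragments over all high-ratio and 178 to 65380 over all low-ratio cells. Gene fragments had a median of 464302 (range 250167 to 3578643) in high-ratio and 449446 (range 200235 to 1075682) in low-ratio cells. Across the 1439 cells, which share plates and pooling, the log2 ratio correlated with the log2 spike-in count at r = -0.955 and with log2 gene fragments at r = 0.0479. The ratio was therefore close to an inverse spike-in count. The paper describes a fixed cDNA input per library and equimolar pooling, which evens out fragments between wells. The low correlation with gene fragments thus does not show whether the ratio follows RNA content. The lower edges of the group lay at ratios of 3596, 7165, 2694 and 2795 on plates 2 to 5, and the nearest cells outside had 3538, 7156, 2690.4 and 2789.8. For 81 of the 289 cells the exact 95% Poisson interval of the spike-in count reached that edge, 18 cells had fewer than 10 spike-in fragments, and 3 cells, on plate 3, had 0. That interval treats PCR fragments as independent molecules, so 81 may be too few. The median high-ratio cell had fragments of 6 different spike-ins, against 11 in low-ratio cells, and on plate 3 of 3 against 19.

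The ratio followed the position of the wells on both plates of mouse 1. On plate 2, 54 of the 72 high-ratio cells sat in the even columns of rows A, C, E to O, a set with 90 of the plate's 359 kept cells. The median ratio in that set was 3909, against 2063, 1879.7 and 1731 in the other sets of rows and columns on the plate. On plate 3, 73 of the 74 high-ratio cells sat in rows B, D, F to P. There the median ratio was 5699.8 in odd and 6122 in even columns, against 1838 and 1640.1 in the remaining rows. Plates 4 and 5 of mouse 2 showed no such pattern of sets, with between 13 and 24 high-ratio cells in each of the 4 sets of each plate. A well with few spike-in fragments and a cell with much RNA cannot be told apart by the ratio, so the cells are called by their ratio here. The main results below are also given with the top and bottom 20% taken within each row and column set of each plate (bins of about 12 wells, chosen after the pattern was seen), which puts high- and low-ratio cells side by side from the same set of wells. In such small bins this cut took in 358 cells at each end, against 289 with bins per plate. Values within row and column sets thus differ in the position of the wells and in a wider cut, which were not told apart. Of the 289 high-ratio cells, 198 (68.5%) were also in that second group, where they made up 55.3% of its 358 cells.

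**Figure D1:**
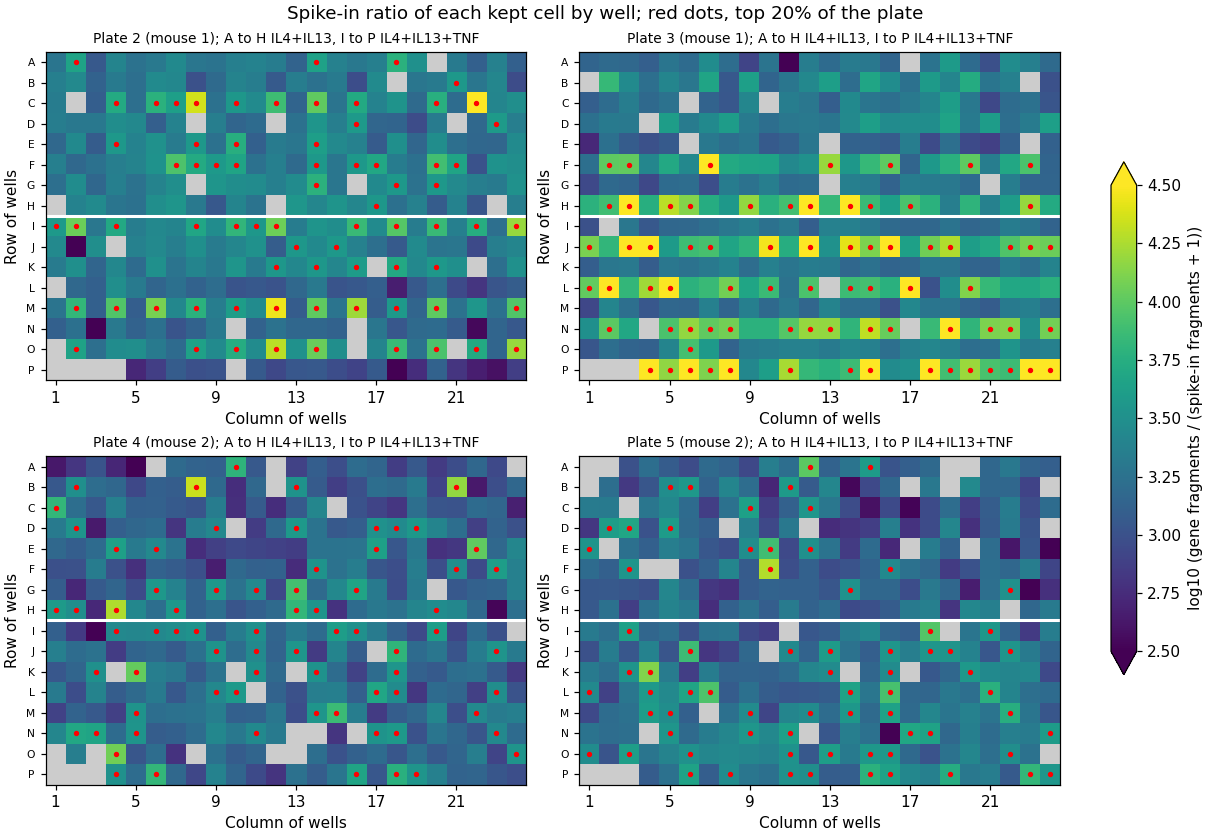
Spike-in ratio (log10 colour scale) of each kept cell, drawn at its row and column on plates 2 to 5, with red dots on the high-ratio cells, grey for wells without a kept cell and a white line between the treatments. The dots of plate 2 gather in the even columns of every second row and those of plate 3 in rows F to P, every second row, while those of plates 4 and 5 are spread out.

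Whether the share of high-ratio cells differed with TNF was compared next. It was higher with IL4+IL13+TNF on all 4 plates, but the size differed. On plate 2 it was 18.2% (33 of 181 cells, exact 95% interval 12.9 to 24.6%) with IL4+IL13 and 21.9% (39 of 178 cells, exact 95% interval 16.1 to 28.7%) with IL4+IL13+TNF. On plate 3 it was 9.94% (18 of 181 cells, exact 95% interval 6.00 to 15.3%) and 30.3% (56 of 185 cells, exact 95% interval 23.7 to 37.4%). On plate 4 it was 16.8% (31 of 185 cells, exact 95% interval 11.7 to 22.9%) and 23.4% (41 of 175 cells, exact 95% interval 17.4 to 30.4%), and on plate 5 10.9% (19 of 174 cells, exact 95% interval 6.70 to 16.5%) and 28.9% (52 of 180 cells, exact 95% interval 22.4 to 36.1%). The intervals overlapped on plates 2 and 4 and were apart on plates 3 and 5. Counted per mouse, the shares without TNF were 14.1 and 13.9% and with TNF 26.2 and 26.2%, a difference of 12.2 ± 0.132 percentage points (SD, n = 2 mice). This small SD followed from pooling the plates of each mouse, whose differences were 3.68 and 20.3 in mouse 1 and 6.67 and 17.97 in mouse 2. The SD was 1.99 with the top 10% and 6.08 without plate 3, so 0.132 is no measure of precision. The exact two-sided permutation test took the 4 samples as unpaired and gave p = 0.33, the smallest that 2 samples against 2 allow. The same 2 mice received both treatments, however. The group was also a fixed share of each plate, so a higher share with 1 treatment meant a lower share with the other. The 4 shares were thus not independent values, and no conclusion is drawn from this p-value.

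The shares also differed between sets of rows. In rows B, D, F to P of plate 2 the direction turned, with 13 of 89 (14.6%) high-ratio cells with IL4+IL13 and 2 of 87 (2.30%) with IL4+IL13+TNF, while in rows A, C, E to O they were 20 of 92 (21.7%) and 37 of 91 (40.7%). On plate 3 nearly all of the difference lay in rows B, D, F to P, with 18 of 93 (19.4%) and 55 of 90 (61.1%). Plates 4 and 5 kept the direction in both sets of rows, at 11 of 91 (12.1%) and 19 of 87 (21.8%) in rows A, C, E to O of plate 4 and 10 of 88 (11.4%) and 23 of 90 (25.6%) in those of plate 5. Without plate 3 the difference was 3.68 percentage points in mouse 1 and 12.3 in mouse 2. In rows G to J, the 4 rows nearest the border of the treatments, it was 14 and 10.4 percentage points.

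**Figure D2:**
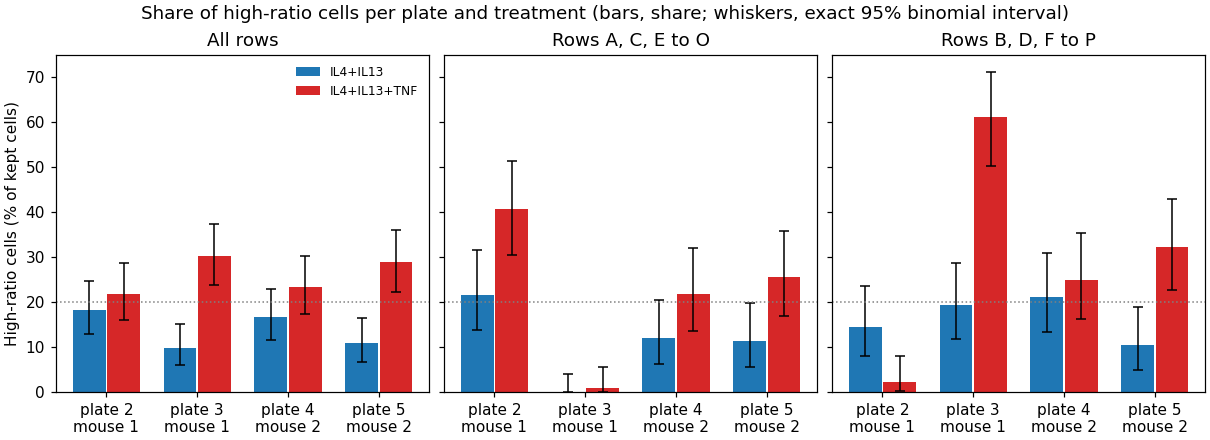
Percentage of kept cells that are high-ratio cells, per plate and treatment, over all rows and in each set of alternate rows, with exact 95% binomial intervals that cover counting error only and a dotted line at 20%. The bars of IL4+IL13+TNF are the taller ones on all plates over all rows, and plates 2 and 3 differ between the sets of rows.

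High-ratio cells tended to hold more genes at equal depth, most clearly in mouse 2. Each cell was thinned to 200000 gene fragments, so that the number of genes did not follow sequencing depth. With IL4+IL13 the mean number of genes was 7121 in high-ratio and 6789 in low-ratio cells of mouse 1 and 6303 and 5852 in mouse 2. With IL4+IL13+TNF it was 7033 and 7177 in mouse 1, the pair with the opposite direction, and 6791 and 6102 in mouse 2. That opposite direction came from plate 3, with 6890 in high-ratio and 7229 in low-ratio cells, against 7237 and 7145 on plate 2. Without plate 3 all 4 pairs were higher. The SD between cells of one group lay between 510.1 and 1044 genes, so single cells of the groups overlapped. The mean difference over the 4 pairs was 332 ± 351 genes (SD, n = 4 pairs from 2 mice), with p = 0.25 in the exact two-sided sign-flip permutation test. Within row and column sets all 4 pairs were higher in the high-ratio cells, by 237 and 532 genes without TNF and 82.3 and 539.8 with TNF (exact permutation p = 0.12, the smallest that 4 pairs allow). Counting only genes with at least 5 thinned fragments, all 4 pairs were also higher, by 129.8 genes in the IL4+IL13+TNF cells of mouse 1 and by 411 on average. The share of mitochondrial fragments was similar, with medians of 3.04% in high-ratio and 3.24% in low-ratio cells.

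Cells with clear *Top2a* or *Mki67* expression were more frequent among high-ratio cells in 3 of 4 pairs. *Top2a* encodes the topoisomerase that untangles replicated DNA and *Mki67* encodes a nuclear protein of dividing cells, and a cell counted as cycling with at least 5 thinned fragments of either gene. With IL4+IL13 the share was 68.6% of 51 high-ratio and 45.9% of 61 low-ratio cells in mouse 1, and 40.0% of 50 and 21.6% of 102 in mouse 2. With IL4+IL13+TNF it was 30.5% of 95 and 34.1% of 85 in mouse 1, and 30.1% of 93 and 22% of 41 in mouse 2. The mean difference was 11.4 ± 11.7 percentage points (SD, n = 4 pairs, exact sign-flip permutation p = 0.25), which is no larger than the spread between pairs. Within row and column sets it was 5.96 ± 9.69 percentage points, with the IL4+IL13+TNF cells of mouse 1 again in the opposite direction at 25.3 against 33%. That direction depended on the plate and on the minimum of 5 fragments. With bins per plate, this pair had 41.0% of 39 high-ratio and 44.2% of 52 low-ratio cells on plate 2. On plate 3 it had 23.2% of 56 and 18.2% of 33 cells, the other direction. Its high- and low-ratio cells were thus drawn unequally from plates with unlike shares. With at least 1 or at least 20 fragments this pair was higher by 3.65 and 2.35 percentage points, and all 4 pairs were higher.

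**Figure D3:**
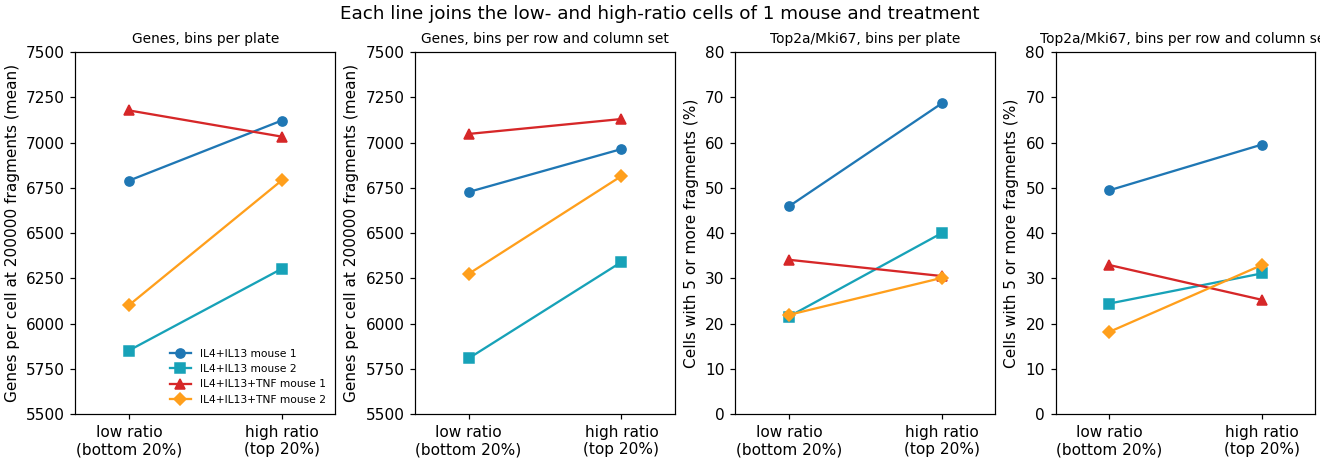
Mean genes per cell at 200000 fragments (axis not from 0) and percentage of cells with at least 5 thinned Top2a or Mki67 fragments, in low- and high-ratio cells of the 4 samples, with bins per plate and with bins per row and column set. Lines that climb to the right are pairs with the higher value in high-ratio cells, and the IL4+IL13+TNF cells of mouse 1 fall in 3 of the 4 panels.

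To compare gene expression, counts were summed over the high-ratio and over the low-ratio cells of each mouse and treatment and tested with edgeR with the sample as a block. Both plates of a mouse were added, and the 2 groups drew on them unequally. In IL4+IL13 cells of mouse 1, plates 2 and 3 gave 33 and 18 high-ratio but 20 and 41 low-ratio cells. The block does not hold the plate. Sums per plate and treatment, which do, were fitted as an alternative, where edgeR called 0 of 14265 genes. Levels are counts per 1000000 gene fragments (CPM), which show how a cell divides its fragments among genes and not how much RNA it holds. Differences are log2 of the high-ratio over the low-ratio level. No gene of 15553 tested passed the adjusted threshold of 0.05 (0%), with a smallest adjusted p of 0.712, and 1069 (6.87%) had an unadjusted p under 0.05. DESeq2, run as an alternative on the same sums, called 113 genes (0.727%), 78 higher and 35 lower. Of all genes tested, 9.08% were higher in the high-ratio cells of 4 of 4 pairs and 8.37% lower, and the median difference was 0.00. In simulated counts of this comparison, edgeR recovered 54% of genes changed by a log2 of 2 and 18% of those changed by 1. The gene groups below are therefore described by counts over pairs and medians, with no call by edgeR for any gene named.

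Genes of DNA synthesis were the group with the most uniform direction. Of the S phase list, 22 of 42 genes were higher and 0 lower in 4 of 4 pairs, with a median difference of 0.72 and medians of 1.22, 0.36, 0.72 and 0.54 in the IL4+IL13 and IL4+IL13+TNF cells of mouse 1 and then of mouse 2. *Rrm2* (chr12:24708241-24714146, mm10), the regulated subunit of the enzyme that makes deoxyribonucleotides, had 303 CPM in high-ratio and 51 in low-ratio IL4+IL13 cells of mouse 1, 36 and 3.94 in those of mouse 2, 111 and 68.5 in IL4+IL13+TNF cells of mouse 1 and 71.6 and 13.7 in those of mouse 2. Its high-ratio value was the larger one in each pair, although the IL4+IL13 low-ratio cells of mouse 1 exceeded the high-ratio cells of mouse 2. The difference was 2.22 ± 0.43 (SE), with a DESeq2 adjusted p of 4.81e-07. *Cdc45* (chr16:18780447-18811987), a part of the replicative helicase, had 64.8 against 11.3 and 20.2 against 6.61 CPM in IL4+IL13 and IL4+IL13+TNF cells of mouse 1, and 6.42 against 0.417 and 14.1 against 1.74 CPM in those of mouse 2 (high against low). Its difference was 2.73 ± 0.43 (SE), with a DESeq2 adjusted p of 3.52e-07. *Dscc1*, which acts in loading the replication clamp, and *Rpa2*, which coats single-stranded DNA, differed by 1.90 ± 0.35 (SE) and 0.96 ± 0.21 (SE), with DESeq2 adjusted p of 0.00518 and 0.0183. DESeq2 called 9 genes of the list, all of them higher. Within row and column sets the list median was 0.60, and on plates 2 to 5 taken singly it was 0.81, 0.72, 0.87 and 0.59. When cells counted as cycling were left out of both groups, the median was 0.09 and *Rrm2* differed by -0.89, while *Cdc45* still differed by 2.74. These cells were left out by *Top2a* and *Mki67*, markers of dividing cells, so the smaller median is not an independent result.

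Some genes of the S phase list hold a known promoter feature. How often it occurs is a property of the list, the same for any choice of cells, and lends no weight to the differences above. E2F transcription factors switch on replication genes and bind sites of the type TTTGGCGC, TTTCGCGC, TTTCCCGC or TTTGCCGC. These words were searched on both strands of RefSeq promoter windows (build GRCm38.p6, 300 bases, 250 before and 50 after each start), and matches can overlap. Of the 42 genes, 30 had a window, and 12 of 33 windows (36.4%) held a word, against 744 of 32851 windows of all genes (2.26%), 3 of 51 of the G2/M list and 0 of 9 of the C1q-Maf list. The match is a description of the letters and says nothing about binding in these cells. The S phase genes with a word and the smallest p in the comparison of high- and low-ratio cells are printed to show it (chosen after their values were seen), 5′ to 3′ on the gene's strand, with the words in capitals. *Dtl* (chr1:191575495-191575794, minus strand) helps to degrade replication factors, *Clspn* (chr4:126556730-126557029, plus strand) encodes a replication checkpoint protein, and *Mcm6* (chr1:128359656-128359955, minus strand) encodes a helicase subunit.
Dtl: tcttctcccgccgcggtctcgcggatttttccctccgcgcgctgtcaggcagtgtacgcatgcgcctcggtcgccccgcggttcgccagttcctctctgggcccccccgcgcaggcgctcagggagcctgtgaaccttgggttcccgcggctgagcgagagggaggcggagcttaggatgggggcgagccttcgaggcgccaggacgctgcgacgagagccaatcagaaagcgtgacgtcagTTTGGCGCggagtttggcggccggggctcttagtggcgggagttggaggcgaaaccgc
Clspn: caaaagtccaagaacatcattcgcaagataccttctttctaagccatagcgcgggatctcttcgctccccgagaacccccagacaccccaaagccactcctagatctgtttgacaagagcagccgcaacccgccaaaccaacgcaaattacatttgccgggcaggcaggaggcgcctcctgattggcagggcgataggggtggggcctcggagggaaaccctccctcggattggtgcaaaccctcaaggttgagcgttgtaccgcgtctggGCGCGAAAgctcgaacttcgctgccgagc
Mcm6: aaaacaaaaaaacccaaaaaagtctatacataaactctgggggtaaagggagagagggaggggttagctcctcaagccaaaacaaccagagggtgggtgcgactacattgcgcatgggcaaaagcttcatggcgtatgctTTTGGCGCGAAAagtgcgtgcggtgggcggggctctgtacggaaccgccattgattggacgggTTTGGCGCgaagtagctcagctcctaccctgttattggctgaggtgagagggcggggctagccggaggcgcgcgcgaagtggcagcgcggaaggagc
All 3 genes were higher in the high-ratio cells of 4 of 4 pairs, by 0.98 ± 0.33 (SE), 0.79 ± 0.28 (SE) and 0.45 ± 0.17 (SE). Without cycling cells *Dtl* and *Clspn* differed by -2.28 and -0.91, and on plates 3 and 5 alone *Dtl* differed by -0.07 and -0.31. *Rrm2* and *Cdc45* had no such word in their windows.

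Genes of mitosis followed less uniformly. Of the G2/M list, 16 of 52 genes were higher and 0 lower in 4 of 4 pairs, with a median of 0.45 and sample medians of 0.74, 0.05, 0.80 and 0.20 in the same order as above. *Bub1*, a kinase of the spindle checkpoint, had 52.9 CPM in high-ratio and 30.4 in low-ratio IL4+IL13 cells of mouse 1, 38.1 and 15.1 in those of mouse 2, 26 and 13.4 in IL4+IL13+TNF cells of mouse 1 and 32.3 and 16.1 in those of mouse 2. All 4 pairs were higher, by 1.02 ± 0.17 (SE), with a DESeq2 adjusted p of 9.59e-04. *Top2a* had 291 against 91.1 and 86.7 against 89.8 CPM in IL4+IL13 and IL4+IL13+TNF cells of mouse 1, and 123 against 29.4 and 105 against 28.5 CPM in those of mouse 2 (high against low). The IL4+IL13+TNF cells of mouse 1 stood apart from the other 3 pairs, and the difference was 1.41 ± 0.38 (SE) with a DESeq2 adjusted p of 0.00518. *Cdk1*, the kinase that drives entry into mitosis, differed by 1.03 ± 0.30 (SE) with the same pair near 0, *Tacc3*, a spindle protein, by 0.68 ± 0.16 (SE) and *Mki67* by 0.58 ± 0.22 (SE). The list median was 0.50 within row and column sets and -0.04 without cycling cells, where *Tacc3* and *Mki67* were at -0.04 and -0.01. Cycling cells were defined by *Top2a* and *Mki67*, both on this list. Values near 0 without these cells were therefore largely fixed in advance and are no separate result. Plate 4 had the highest of the plate medians, 1.16, against 0.25 to 0.47 on the other plates.

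*C1qc* and *C1qb*, which encode chains of the complement component C1q, were lower in the high-ratio cells of each pair, although edgeR called neither. The C1q-Maf list, which holds genes of mature phagocytic macrophages, had 3 of 12 genes lower (25%, against 8.37% of all genes tested) and 0 higher in 4 of 4 pairs and a median of -0.32. *C1qc* (chr4:136889804-136893065) had 311 CPM in high-ratio and 517 in low-ratio IL4+IL13 cells of mouse 1, 506 and 655 in those of mouse 2, 244 and 322 in IL4+IL13+TNF cells of mouse 1 and 454 and 623 in those of mouse 2. High-ratio cells were lower in each pair, with a difference of -0.49 ± 0.09 (SE) and a DESeq2 adjusted p of 0.00628. *C1qb* had 1408 against 1811 and 1492 against 1655 CPM in IL4+IL13 and IL4+IL13+TNF cells of mouse 1, and 1471 against 1935 and 1727 against 2291 CPM in those of mouse 2 (high against low), a difference of -0.33 ± 0.06 (SE) with a DESeq2 adjusted p of 0.0560. *Ccl8*, a chemokine of IL4-stimulated macrophages, differed by -1.25 ± 0.40 (SE) (DESeq2 adjusted p = 0.0152), with 13.6 against 69.6 and 107 against 404 CPM in IL4+IL13 and IL4+IL13+TNF cells of mouse 1, and 27.4 against 39.3 and 435 against 523 CPM in those of mouse 2. These 3 genes were the ones lower in 4 of 4 pairs, so *C1qa*, the other C1q chain gene of the list, was not lower in each pair. Within row and column sets *C1qc* differed by -0.47, *C1qb* by -0.30 and the list by -0.18. The list median shrank to -0.13 without the IL4+IL13 cells of mouse 1 and to -0.08 against all other kept cells. On plate 4 it was 0.03, with *Ccl8* at 0.30, and *C1qb* differed by 0.02 on plate 2.

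Genes of MHC class II presentation had a median of -0.70, with -0.60, 0.07, -1.31 and -0.60 in the IL4+IL13 and IL4+IL13+TNF cells of mouse 1 and then of mouse 2. However, only 2 of 10 genes were lower in 4 of 4 pairs (20%, against 8.37% of all genes tested). *Ciita*, the master regulator of class II genes, had 8.95 CPM in high-ratio and 14.1 in low-ratio IL4+IL13 cells of mouse 1, 33.2 and 83 in those of mouse 2, 25.3 and 29.2 in IL4+IL13+TNF cells of mouse 1 and 37 and 85 in those of mouse 2, a difference of -0.85 ± 0.23 (SE) that was not called by DESeq2 (adjusted p = 0.0615). *H2-Aa*, a class II chain chosen after its values were seen, had 149.6 against 260.2 and 699 against 702 CPM in IL4+IL13 and IL4+IL13+TNF cells of mouse 1, and 134 against 635 and 774 against 712 CPM in those of mouse 2 (high against low). Its low value belonged to the IL4+IL13 high-ratio cells of mouse 2, and the values of the IL4+IL13+TNF pairs were close to each other. The list median was -0.65 within row and column sets and -0.28, -1.18, -0.51 and -1.20 on plates 2 to 5. It was -0.34 without the IL4+IL13 cells of mouse 2, -0.37 without cycling cells and -0.25 in sums per mouse over both treatments. *Ciita* differed by 1.14 on plate 2 alone and *H2-Aa* by 0.08 on plate 4 alone. Dendritic cell markers, of which 8 were summed, stood at 22.4 and 19.5 in high- and low-ratio IL4+IL13 cells of mouse 1, 37.7 and 53.6 in those of mouse 2, 22.9 and 119 in IL4+IL13+TNF cells of mouse 1 and 84.5 and 38.9 CPM in those of mouse 2, and their part in the class II values was not tested.

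Genes of alternative activation had mixed directions. Of the M2 list, 2 of 19 genes were higher and 3 lower in 4 of 4 pairs (10.5 and 15.8%, near the 9.08 and 8.37% of all genes tested). The list median of -0.22 was -0.10 within row and column sets, 0.02 in mouse 1 alone and 0.11 on plate 3 alone. Part of the list is a signature that the study used on these cells, so its direction is not independent evidence. *Clec10a*, a lectin receptor induced by IL4, had 193 CPM in high-ratio and 250.0 in low-ratio IL4+IL13 cells of mouse 1, 243 and 345 in those of mouse 2, 80.5 and 98.4 in IL4+IL13+TNF cells of mouse 1 and 96.9 and 134 in those of mouse 2. It was lower in each pair, with a difference of -0.41 ± 0.09 (SE) (DESeq2 adjusted p = 0.0286), but of -0.15 within row and column sets. *Mrc1*, the mannose receptor, differed by -0.38 ± 0.11 (SE) and *Mgl2*, the neighbour of *Clec10a*, by -0.30 ± 0.13 (SE). *Retnla*, which encodes RELMα, had 62.1 against 1.73 and 33.6 against 0.173 CPM in IL4+IL13 and IL4+IL13+TNF cells of mouse 1, and 271 against 644 and 7.97 against 139.6 CPM in those of mouse 2 (high against low), so that mouse 1 and mouse 2 had opposite directions, and the difference was 1.37 ± 2.82 (SE), and -0.42 within row and column sets. *Il10* was higher in 4 of 4 pairs by 1.43 ± 0.44 (SE) at levels of at most 10.9 CPM (DESeq2 adjusted p = 0.272). *Kitl*, the ligand of the receptor KIT, differed by 0.97 ± 0.26 (SE) and *Apoe*, an apolipoprotein, by -0.32 ± 0.56 (SE), or 0.37 within row and column sets.

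Immediate early genes, which respond within minutes to growth factors and stress, were lower in 4 of 4 pairs for some members. Of the list, 0 of 16 genes were higher and 4 lower in 4 of 4 pairs (25% lower, against 8.37% of all genes tested). The list median was -0.25, or -0.27 within row and column sets and -0.11 without cycling cells. *Egr1* had 7.91 CPM in high-ratio and 49.9 in low-ratio IL4+IL13 cells of mouse 1, 9.63 and 71.5 in those of mouse 2, 13.7 and 28.6 in IL4+IL13+TNF cells of mouse 1 and 33.9 and 56.4 in those of mouse 2. The high-ratio cells were lower in each pair, with a difference of -1.83 ± 0.45 (SE) (DESeq2 adjusted p = 0.00191) and of -0.87 within row and column sets. *Ier2* and *Btg2*, a further early response gene and an antiproliferative one, differed by -0.57 ± 0.14 (SE) and -0.54 ± 0.19 (SE).

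Lists of lipid-type, lysosomal, proteasome, cholesterol synthesis, secretory and stress response genes had a larger share of members higher in 4 of 4 pairs than the 9.08% of all genes, with medians of 0.22 at most. Of the Gpnmb-lipid list, 5 of 14 genes were higher and 0 lower in 4 of 4 pairs (median 0.17, within row and column sets 0.17). The median turned to -0.06 on plate 3 alone and was 0.07 without the IL4+IL13 cells of mouse 2. *Fabp4* (chr3:10204088-10208576), a fatty acid carrier, had 192 CPM in high-ratio and 132 in low-ratio IL4+IL13 cells of mouse 1, 257 and 141 in those of mouse 2, 144 and 93.2 in IL4+IL13+TNF cells of mouse 1 and 295 and 107 in those of mouse 2. Each pair was higher, by 0.87 ± 0.17 (SE) (DESeq2 adjusted p = 0.00181), and by 0.68 within row and column sets. *Gpnmb*, a glycoprotein of lysosome-rich macrophages, differed by 0.47 ± 0.15 (SE), *Pparg*, the lipid-sensing receptor, by 0.35 ± 0.13 (SE) (but -0.10 on plate 2 alone), and *Lgals3* (galectin-3) by 0.21 ± 0.05 (SE). Of the lysosome list, 9 of 32 genes were higher and 0 lower in 4 of 4 pairs (median 0.10, within row and column sets 0.10), and *Ctsd*, the protease cathepsin D, had 4335 against 3333 and 4059 against 3403 CPM in IL4+IL13 and IL4+IL13+TNF cells of mouse 1, and 5204 against 3274 and 3802 against 3159 CPM in those of mouse 2 (high against low), a difference of 0.39 ± 0.08 (SE) with a DESeq2 adjusted p of 0.0575. Cholesterol synthesis had a median of 0.22 (0.18 within row and column sets, 7 higher and 1 lower of 23), folding and secretion in the endoplasmic reticulum one of 0.09 (0.11 within row and column sets, 7 higher and 1 lower of 24) and the integrated stress response one of 0.20 (0.05 within row and column sets, 4 higher and 0 lower of 17). Of the proteasome list, 11 of 31 genes were higher and 0 lower in 4 of 4 pairs (median 0.08, within row and column sets 0.06), with *Psmb5*, a catalytic subunit, at 0.50 ± 0.13 (SE).

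Cytosolic ribosomal protein genes took a slightly smaller share of the fragments of high-ratio cells. Of these, 1 of 78 genes were higher and 25 lower in 4 of 4 pairs, with a median of -0.11 (-0.11 within row and column sets and -0.00 on plate 3 alone), and their summed level was 11823 to 13136 CPM in high-ratio and 13035 to 14157 CPM in low-ratio cells, lower in 4 of 4 pairs. *Rps14* differed by -0.23 ± 0.08 (SE) and *Rpl7* by -0.29 ± 0.10 (SE), and none of the list was called by DESeq2. Ribosomal protein genes have many processed pseudogenes, and the counting of reads shared with these copies leaves their values uncertain. The remaining lists had medians between -0.12 and 0.17, and 16 of the 25 gene lists changed sign in at least 1 of 28 alternative fits. The median was 0.08 (0.05 within row and column sets, 6 higher and 0 lower of 46) for ribosome biogenesis and RNA polymerase I, 0.04 (-0.01 within row and column sets, 0 higher and 1 lower of 12) for RNA polymerase II subunits, 0.17 (0.08 within row and column sets, 4 higher and 1 lower of 25) for cell size and growth control, 0.12 (0.20 within row and column sets, 3 higher and 1 lower of 15) for apoptosis and 0.13 (0.23 within row and column sets, 0 higher and 1 lower of 14) for cell fusion. Nuclear genes of oxidative phosphorylation had 0.00 (-0.01 within row and column sets, 7 higher and 4 lower of 73), mitochondrially encoded proteins 0.01 (0.03 within row and column sets, 1 higher and 0 lower of 13), glycolysis -0.04 (-0.03 within row and column sets, 1 higher and 1 lower of 16) and actin and adhesion genes -0.02 (-0.01 within row and column sets, 5 higher and 2 lower of 32). Inflammatory NF-κB targets had 0.08 (-0.13 within row and column sets, 1 higher and 1 lower of 21), the interferon response 0.08 (-0.13 within row and column sets, 3 higher and 2 lower of 22) and long noncoding RNAs retained in the nucleus or hosting small RNAs -0.12 (-0.08 within row and column sets, 0 higher and 1 lower of 11). The commonly used reference genes differed by -0.09 ± 0.07 (SE) for *Actb*, 0.04 ± 0.22 (SE) for *Gapdh* and -0.02 ± 0.05 (SE) for *B2m*, and the nuclear RNAs *Malat1* and *Neat1* by -0.19 ± 0.12 (SE) and -0.03 ± 0.16 (SE).

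**Figure D4:**
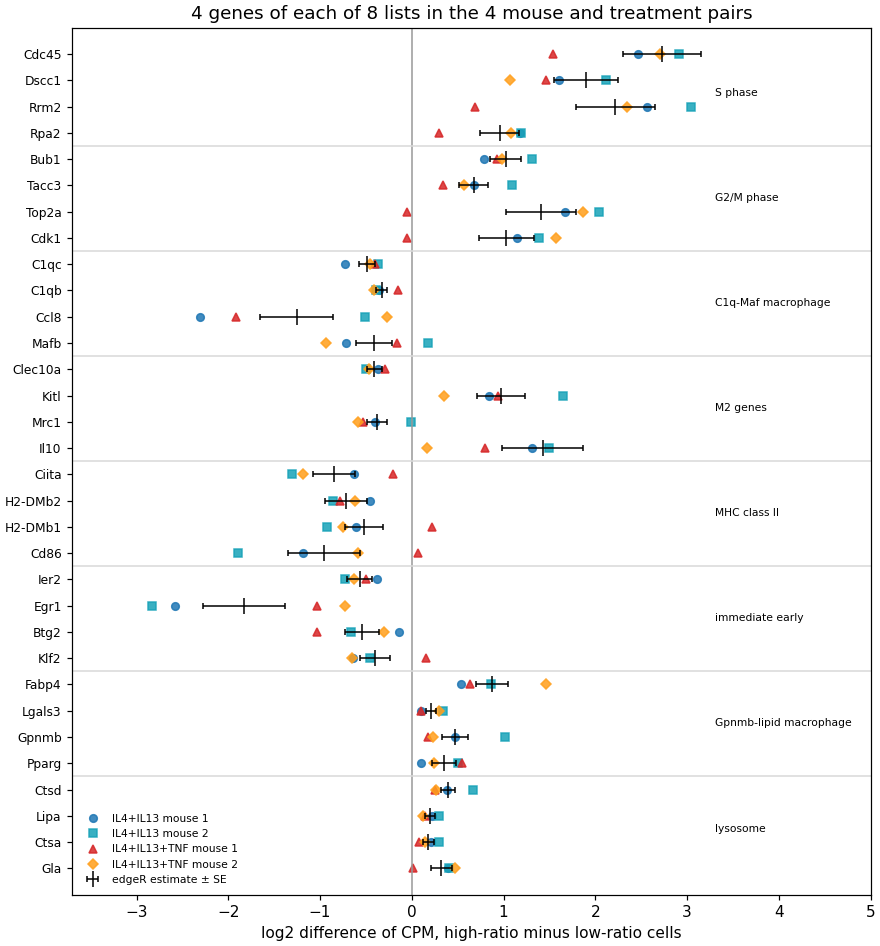
log2 difference in CPM between high- and low-ratio cells for the 4 genes with the smallest p in each of 8 lists, with a marker per mouse and treatment and the edgeR estimate ± SE as a black bar. The S phase genes lie right of 0 in all 4 samples, Top2a and Cdk1 reach 0 in the IL4+IL13+TNF cells of mouse 1, and C1qc and C1qb lie left of 0.

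Each plate was also divided into 5 bins of 20% by the ratio, from bin 1 (low-ratio) to bin 5 (high-ratio), with CPM here of plain totals without TMM scaling. The summed S phase level did not climb evenly over the bins. In the IL4+IL13 cells of mouse 1 it was 1506, 1809.6, 1777, 1798 and 3451 CPM from bin 1 to bin 5, so the high-ratio cells stood apart from the other bins. In mouse 2 it was 780.1, 813, 1193, 1213 and 1108 CPM, with the step between bins 2 and 3. With IL4+IL13+TNF it was 1341, 1057, 1429, 1062 and 1604 CPM in mouse 1 and 828, 669.5, 710.0, 869.7 and 1090.4 CPM in mouse 2. The summed C1q-Maf level was 4330.0 CPM in bin 1 and 3068 in bin 5 of IL4+IL13 cells of mouse 1, and 3707 and 2869 in mouse 2. With IL4+IL13+TNF it was 3592 and 2941 CPM in mouse 1 and 4436 and 3574 in mouse 2, where bin 4 was lower still at 3061. The G2/M level of the IL4+IL13 cells of mouse 2 was highest in bin 4, at 4421 CPM, against 3261 in bin 5. MHC class II genes of the IL4+IL13+TNF cells of mouse 2 summed to 3080.3, 6591, 5094, 3801 and 2621 CPM over the bins, and the dendritic cell markers of the same cells to 37.3, 579.9, 417, 35.4 and 82.2 CPM. Both were highest in bins 2 and 3, and the part of dendritic cells was not tested.

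**Figure D5:**
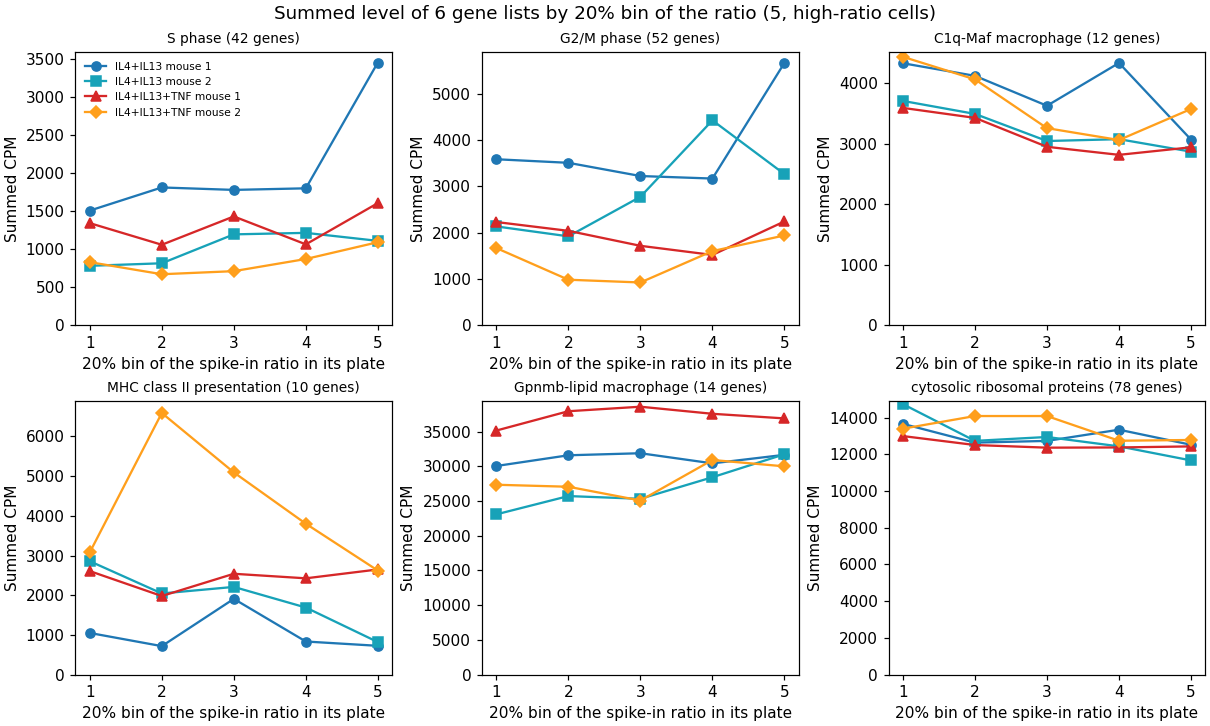
Summed CPM of 6 gene lists in each 20% bin of the ratio within its plate (1, low-ratio cells, to 5, high-ratio cells), with a line for each mouse and treatment. The S phase line of IL4+IL13 mouse 1 jumps in bin 5, the C1q-Maf lines end lower than they start, and the MHC class II line of IL4+IL13+TNF mouse 2 peaks in bin 2.

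Further genes were picked after their values were seen, from those called by DESeq2 with 1 direction in 4 pairs, and are given as examples. *Tmem154*, a membrane protein, had 83.2 against 47.2 and 27.2 against 13 CPM in IL4+IL13 and IL4+IL13+TNF cells of mouse 1, and 116 against 53.3 and 30.1 against 17.5 CPM in those of mouse 2 (high against low), a difference of 0.95 ± 0.13 (SE) with a DESeq2 adjusted p of 5.36e-05, and 0.62 within row and column sets. *Ms4a4a*, a tetraspan membrane protein of IL4-stimulated macrophages, had 44.5 against 65.8 and 8.79 against 35.3 CPM in IL4+IL13 and IL4+IL13+TNF cells of mouse 1, and 58.2 against 129.8 and 35.9 against 87.2 CPM in those of mouse 2, a difference of -1.25 ± 0.24 (SE) (DESeq2 adjusted p = 8.77e-04), but -0.41 within row and column sets. Its family member *Ms4a4c*, whose similar sequence leaves the split of reads uncertain, differed by -1.34 ± 0.22 (SE), *Rasgrp3*, an activator of Ras proteins, by -0.77 ± 0.12 (SE), *Fcrls*, an Fc receptor–like scavenger protein, by -1.12 ± 0.21 (SE), and *Rnase4*, a secreted ribonuclease, by -0.61 ± 0.12 (SE). On the higher side, *Iqgap3* and *Ncaph*, a scaffold of proliferating cells and a condensin subunit, differed by 1.77 ± 0.34 (SE) and 1.26 ± 0.27 (SE), with *Iqgap3* at -2.72 without cycling cells, and *Smc2*, another condensin subunit, by 0.83 ± 0.17 (SE).

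The response to TNF within the high-ratio cells was tested on the 4 sums, 2 per treatment. edgeR called 2 of 15786 genes (0.0127%), both higher, with 956 at an unadjusted p under 0.05. *Clec4e* (chr6:123281789-123289870), the receptor Mincle, had 22.7 and 22.1 CPM without TNF and 712 and 596 CPM with TNF in mouse 1 and mouse 2. The treatments did not overlap, and the difference was 4.87 ± 0.23 (SE, edgeR adjusted p = 0.0395). *H2-M2*, a nonclassical MHC class I gene, had 0.154 and 0.247 CPM without TNF and 114 and 107 CPM with TNF, a difference of 9.10 ± 0.42 with the same adjusted p. Neither call held with the mouse as a replicate block, where edgeR's adjusted p was 0.122 for *Clec4e* and 0.137 for *H2-M2*, nor when any of the 4 sums was left out (0 genes called each time), nor within row and column sets. DESeq2 called 263 genes (1.67%), 147 of them higher. In simulated counts of this comparison edgeR recovered 14% of genes changed by a log2 of 2. In the low-ratio cells edgeR called 0 of 16033 genes (0%), with 929 at an unadjusted p under 0.05, and *Clec4e* had 9.45 and 18.4 CPM without and 623 and 529 CPM with TNF there.

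TNF-linked differences of the gene lists are set side by side for high- and low-ratio cells. Inflammatory and NF-κB target genes had a median log2 difference with TNF of 1.87 in high-ratio and 1.90 in low-ratio cells. MHC class II genes had 1.91 in high-ratio and 0.63 in low-ratio cells, but within row and column sets 0.84 in high-ratio cells and a median difference between the responses of 0.00, against 0.90 with bins per plate. In high-ratio cells *H2-Aa* had 149.6 and 134 CPM without TNF and 699 and 774 CPM with TNF, while in low-ratio cells it had 260.2 and 635 CPM without and 702 and 712 CPM with TNF. The gap lay in the IL4+IL13 cells, most of all in mouse 2. S phase genes had -0.72 in high-ratio and 0.15 in low-ratio cells, G2/M genes -1.05 in high-ratio and -0.43 in low-ratio cells and interferon response genes 0.50 in high-ratio and -0.06 in low-ratio cells. Within row and column sets the median difference between the responses was -0.21 for S phase, -0.44 for G2/M and 0.52 for interferon response genes. Among M2 genes, whose median was 0.34 in high-ratio and 0.95 in low-ratio cells and -0.01 in high-ratio cells within row and column sets, *Clec10a* had 193 and 243 CPM without TNF and 80.5 and 96.9 CPM with TNF in high-ratio cells, a difference of -1.29 ± 0.25 (SE) against -1.35 in low-ratio cells. *Mrc1* differed by -0.98 ± 0.25 and *Retnla* by -3.00 ± 1.00 in high-ratio cells. The difference between the TNF responses of high- and low-ratio cells was tested itself: edgeR called 0 of 15553 genes (0%), with 627 at an unadjusted p under 0.05, and DESeq2 called 35 (0.225%), 16 with a positive and 19 with a negative difference of the log2 responses (high-ratio minus low-ratio). *H2-Aa* was among these, at 1.58 ± 0.51 (SE) with a DESeq2 adjusted p of 0.0158, and *Egr1* at 1.88 ± 0.32 with a DESeq2 adjusted p of 0.0405, both chosen after their values were seen for this test. Within row and column sets they were at 0.78 and 0.55, and edgeR called 0 genes. These adjusted p come from 2 mice, and in simulated counts edgeR recovered 24% of genes with a log2 interaction of 2.

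Both groups carried macrophage markers. All 10 macrophage markers were tested, with a median difference of -0.09, 1 gene higher and 1 lower in 4 of 4 pairs, and the summed level was 18242 to 33021 CPM in high-ratio and 16427 to 29328 CPM in low-ratio cells. *Csf1r*, the M-CSF receptor, was found in 99.7% of high-ratio and 100% of low-ratio cells, and *Lyz2* in 100% of both. The summed level of 10 neutrophil and granulocyte precursor markers was 7.03 to 18.2 CPM in high-ratio and 3.63 to 10.8 CPM in low-ratio cells, higher in 4 of 4 pairs, with 2 genes tested, *Ly6g* and *Ltf* in 0 of the 578 cells of both groups, which allows up to 0.519% of cells with a fragment by counting error alone and sets no limit on cells that express the gene, and *Mmp8* found in 17 and 11.1%. Its part in the results was not tested. Mast cell and basophil, stromal and lymphocyte markers summed to at most 3.65 CPM in each sum, and megakaryocyte and erythroid markers, mostly *Pf4*, which macrophages also express, to 25 to 65 CPM in high-ratio and 30.6 to 64.3 CPM in low-ratio cells. Dendritic cell markers summed to 22.4 to 84.5 CPM in high-ratio and 19.5 to 119 CPM in low-ratio cells, with *Clec9a* in 0 of 289 high-ratio cells, which allows up to 1.04% with a fragment in the same sense, and 1.38% of low-ratio cells.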

How the data were processed

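Single BMDM libraries (Smart-seq2, no molecular identifiers) were deposited as 1 table of raw counts, which the authors made as fragments per gene with gsnap on mm10, Ensembl 98 genes and featureCounts 1.6.3, without strand, beside 92 spike-ins. PCR fragments are not independent molecules, so intervals cover counting error only. Of 1528 samples, 1524 had a mouse and treatment in their labels, 4 stayed unassigned, and 11 table columns were not used. Counts were summed per ratio group, mouse and treatment (19217770 to 49901094 fragments) and tested with edgeR 4.0.16 (quasi-likelihood, TMM, genes with enough counts by filterByExpr, Benjamini-Hochberg at 0.05), with DESeq2 1.42.0 and limma 3.58.1 as alternatives (R 4.3.3). CPM in gene values used TMM-scaled totals. The replicate is the mouse (n = 2): the 4 pairs of high- and low-ratio cells come from 2 mice, share plates, and their p-values measure only the spread between these samples. The same mice received both treatments, and mouse deviations of the high-ratio sums correlated between treatments at r = 0.272 over 15553 genes. Named were up to 4 genes with the smallest p in each list, genes called with 1 direction, the study's M2 signature genes and a few reference and cycle genes, and others are marked as chosen after their values were seen. The members of the group and the gene lists were chosen with earlier results of these data known. No doublet caller was run. The fits were tested on simulated data. Sequences came from RefSeq.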

Additional observations from a re-analysis of the deposited data

How the results depend on the processing

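edgeR and limma called 0 genes between high- and low-ratio cells in all 27 alternatives to the edgeR fit other than DESeq2, which called 113 and in the test of the difference between TNF responses called 35. The smallest adjusted p in these fits was 0.246, within row and column sets. These 0 counts include the fit with no replicate block and the sums per mouse with the mouse as replicate block. For TNF within the high-ratio cells, the 2 genes called became 0 with the mouse as replicate block, 0 with limma on mean CPM per cell, 0 with bins within each treatment, 0 with bins per plate and row, 0 with bins per row and column set, and 0 to 0 when each sum was left out in turn, while 44 were called with no gene filter and 263 by DESeq2. The difference in the share of high-ratio cells was 6.56 percentage points with the top 10%, 12.5 without mitochondrial genes in the ratio, 13.9 in rows B, D, F to P, 10.7 in rows A, C, E to O and 7.97 without plate 3. On plates 2, 3, 4 and 5 alone it was 3.68, 20.3, 6.67 and 17.97 percentage points. Left-out pairs gave 213 to 491 more genes at equal depth and 7.67 to 16.4 more percentage points of cycling cells. Among the main genes and lists followed through each fit, directions turned for the G2/M list without cycling cells (-0.038) and for *Rrm2* without them (-0.89). They also turned for the C1q-Maf list on plate 4 alone (0.027) and for *C1qb* on plate 2 alone (0.019). Further genes named above turned as well, such as *Dtl*, *Clspn* and *Iqgap3* without cycling cells, *Ciita* and *Pparg* on plate 2 alone and *Ccl8* on plate 4 alone. Cycling cells were defined by *Top2a* and *Mki67* of the G2/M list, so its fall to near 0 was largely fixed in advance. Of the 25 gene lists, 16 had a median of the opposite sign in at least 1 of 28 fits, among them the interferon response in 15, the NF-κB targets in 14 and the M2 list in 2, and 9 had none. The causes were not tested. The bins per row, the bins per row and column set and the fits without plate 3 were chosen after the data were seen.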
